A study of Mus musculus with 14 samples.

Results

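The genes described here are 34 genes of the lysosome, the acidic compartment in which cells break down what they have taken up. They comprise 7 membrane and channel proteins, progranulin with 2 sphingolipid activator genes, 10 hydrolases, the transcription factor Tfeb and 13 genes of the proton pump (V-ATPase). They were taken by gene name from the series-wide expression table, which names 47273 genes, and matched by gene identifier to the estimated counts of each library. Cathepsins are not among them. All 34 members were found, and all 34 passed the filter on low counts that left 14279 genes for testing.

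SMART-Seq2, which copies whole transcripts from few cells, was applied to microglia (the resident macrophages of the retina) sorted as CD11b+, Ly6c-, Fcrls+ cells. All mice were wild type C57BL/6 animals aged 12 weeks, and per the labels each retina yielded 100 to 600 sorted cells. The 14 libraries form 4 groups: retinas injected with microbeads (3 libraries, described in the labels as glaucoma), the contralateral retinas of microbead injections (3), retinas with a sham injection (4) and naive retinas (4). Microbeads injected into the eye are used to raise its pressure, but no pressure or nerve measurement was used here. Nothing in the labels says which libraries share a mouse, so the p-values measure the spread between these libraries.

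Lysosomal hydrolases work at acidic pH, which the V-ATPase maintains. Its V1 sector hydrolyses ATP in the cytosol and its V0 sector carries protons across the membrane. TFEB is a transcription factor that enters the nucleus when lysosomes are stressed or nutrients are short, and it binds E-boxes with the core CACGTG in the promoters of many lysosomal genes. Microglia rely on lysosomes to digest engulfed debris and lipids, and lysosomal membrane proteins such as CD68 are widely used as markers of phagocytic microglia.

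Libraries held 1.34 to 14 M reads assigned to genes. Microbead 1, the shallowest, and contralateral 2 stood apart from the rest with reads on 10167 and 10306 genes, while the other 12 libraries had 13472 or more. The microglial genes Fcrls (292 to 1000 CPM), Cx3cr1 and Tmem119 were present in every library, and the monocyte gene Ly6c2, whose protein was gated out, had 0 reads in all of them. Cx3cr1 stood at 2106 to 3626 CPM in the microbead libraries and at 3456 or more elsewhere. The summed CPM of 13 microglial markers overlapped, at 20086 to 41616 in the microbead libraries and 26819 to 43983 elsewhere. CPM (reads of a gene per M reads, scaled by TMM factors) compares 1 gene across libraries, and FPKM, which also divides by transcript length, compares genes. In sorted bulk cells, fewer cells of a kind and less RNA per cell cannot be told apart.

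Promoter sequences are shown first, since they carry the letters that TFEB is known to bind. RefSeq promoters of GRCm38.p6, each from 250 bases before to 50 bases after the transcription start, were found for 30 of the 34 members. The E-box core CACGTG, which reads the same on both strands, was present in 9 of these 30 promoters (30%) and in 8.09% of all 27025 symbols with a promoter. The longer TCACGTGA, which contains the core, was present in 5 of the 30 and in 1.12% of all symbols. A match only says that these letters stand in this window. The copy of the core nearest to the start is given for each of the 9 genes with 10 bases on each side, on the gene's own strand from 5′ to 3′, with the core in capitals. These windows were chosen by the motif search, after values of the genes had been seen.
Lamp1: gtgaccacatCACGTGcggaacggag
Mcoln1: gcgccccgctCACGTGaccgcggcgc
Gla: agatctcggtCACGTGagcaactctc
Glb1: gcttctgagtCACGTGgcctacagag
Naglu: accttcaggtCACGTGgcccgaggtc
Atp6v0b: gtcggcgcatCACGTGcgccggtcag
Atp6v0d1: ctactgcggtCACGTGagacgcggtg
Atp6v0e: gcgcgccgatCACGTGagcctctgtt
Atp6v1a: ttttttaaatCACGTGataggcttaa

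Lamp1 held the most copies of the core, with 4 in its window, and the copy shown starts 15 bases upstream of the transcription start (chr8:13159136-13159161, plus strand). Mcoln1, Atp6v0b and Gla held 2 copies each, and the other 5 genes held 1. The Atp6v0b copy shown starts 18 bases upstream (chr4:117887332-117887357, minus strand). The 9 genes are membrane proteins (Lamp1 and Mcoln1), hydrolases (Gla, Glb1 and Naglu), V0 subunits (Atp6v0b, Atp6v0d1 and Atp6v0e) and the V1 subunit Atp6v1a. The 21 other members with a promoter entry, Tfeb among them, held no copy, and Atp6v1b2, Atp6v1h, Atp6v1c1 and Asah1 had no entry.

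The 2 genes with the clearest differences in the microbead libraries, Gm2a and Grn, were among those without the core. Their 250 bases upstream of the RefSeq start are given, both on the plus strand. The search also covered the 50 bases after the start, which are not printed.
Gm2a, chr11:55097735-55097984: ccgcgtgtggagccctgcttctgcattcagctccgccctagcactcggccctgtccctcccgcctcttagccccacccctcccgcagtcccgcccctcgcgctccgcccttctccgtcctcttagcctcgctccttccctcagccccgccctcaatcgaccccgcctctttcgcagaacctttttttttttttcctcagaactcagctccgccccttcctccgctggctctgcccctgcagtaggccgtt
Grn, chr11:102430257-102430506: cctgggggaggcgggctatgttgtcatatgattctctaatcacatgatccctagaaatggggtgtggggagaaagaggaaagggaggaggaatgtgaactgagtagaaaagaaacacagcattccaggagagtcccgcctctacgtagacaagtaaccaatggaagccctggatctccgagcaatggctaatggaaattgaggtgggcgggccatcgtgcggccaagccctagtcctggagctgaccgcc
The Gm2a stretch holds 65.2% G and C and the Grn stretch 53.6%.

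Members differed widely in level. Laptm5, a lysosomal transmembrane protein of blood-lineage cells, had the highest mean FPKM over the 14 libraries (2682), followed by Grn (1235), Cd68 (841) and Psap (710). Within the pump, the proteolipid subunits of the V0 ring led, with mean FPKM of 676 for Atp6v0b and 522 for Atp6v0c, while Atp6v1a, the catalytic subunit of the V1 sector, had 25.0. Gla, which encodes alpha-galactosidase A, was the lowest at 1.26 FPKM and had 0 reads in 3 libraries. Tfeb was the next lowest at 19.1 FPKM. Genes of sphingolipid breakdown thus stood at both ends of the order, with Psap at rank 4, Hexa (551 FPKM) at rank 6 and Gla last.

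**Figure D1:**
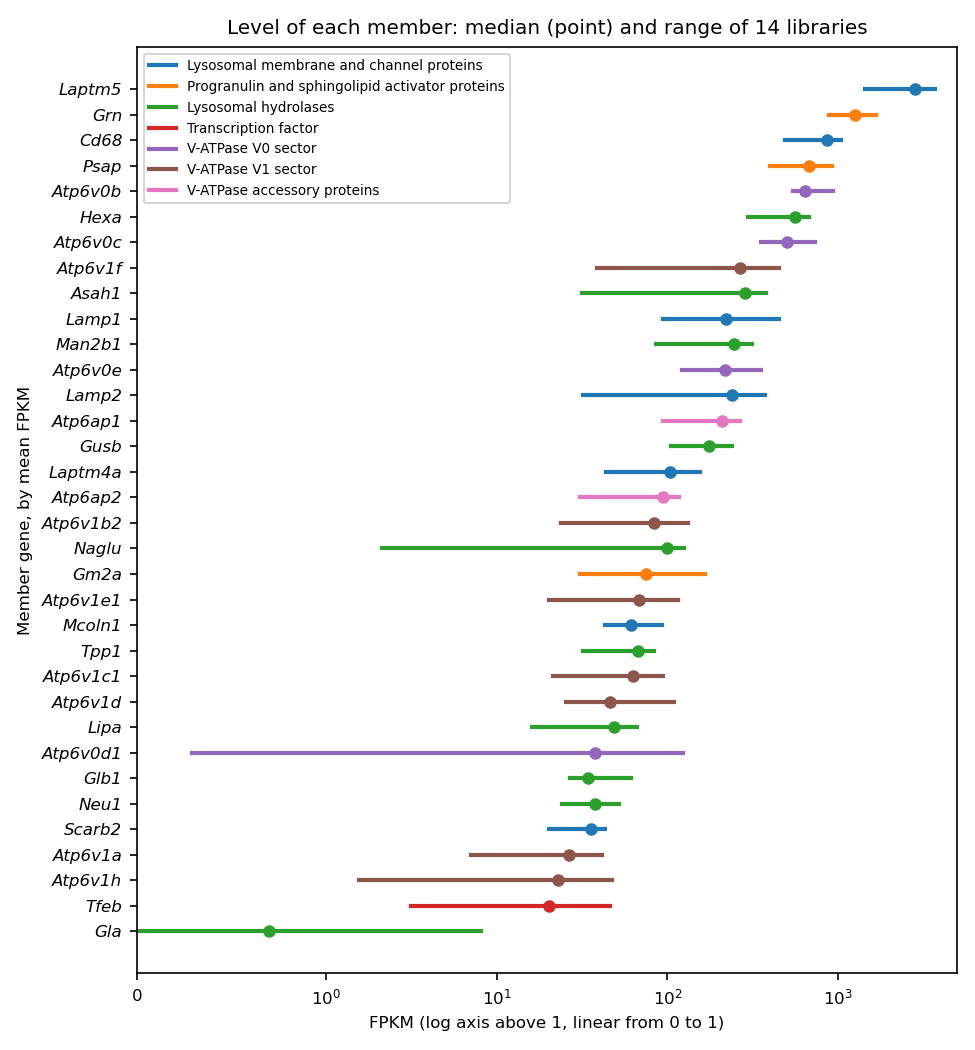
Level of each member in FPKM (log axis above 1), with the median of 14 libraries as a point, the range as a line and colour for the role. Laptm5, Grn and Cd68 lead, Tfeb and Gla are lowest, and Naglu and Atp6v0d1 have the longest ranges among the other members.

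The spread between libraries of 1 group also differed between members. The pooled within-group SD of log2(CPM + 1) was 0.17 for Laptm5 and 0.22 for Grn, but 1.61 for Naglu (a heparan sulfate hydrolase) and 1.49 for Atp6v0d1 (the subunit at the base of the V0 stalk). The 2 libraries with few genes carried much of the last 2 values: without them the SD was 0.34 for Naglu and 0.75 for Atp6v0d1. Atp6v0d1 had 3 reads in contralateral 2. For microbead against naive, the standard error of the log2 fold change ranged from 0.19 to 2.03 over the members, with a median of 0.43.

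No member passed an adjusted p of 0.05 in any of the 6 pairwise comparisons or in the joint test of the 4 groups (edgeR quasi-likelihood test, Benjamini-Hochberg over 14279 genes). The share of all genes called was 0.014% for microbead against sham, 0.21% for microbead against naive, 0.028% for microbead against contralateral, 0% for each of the 3 comparisons among the other groups and 0.224% for the joint test. At an unadjusted p under 0.05, 2 members (Grn and Gm2a) were higher in microbead than in sham and in contralateral libraries. Against naive there were 4 (Grn, Gm2a, Atp6v0b and Atp6v0c). The shares of all genes at an unadjusted p under 0.05 and higher were 4.48% against sham, 4.72% against naive and 4.89% against contralateral, so the 2 of 34 (5.88%) against sham and contralateral stood near the background. No member was lower at that level in the microbead libraries, where 5.27% of all genes were against sham, 5.81% against naive and 6.66% against contralateral. In the joint test 3 members (Grn, Gm2a and Atp6v0c, against 8.17% of all genes) had an unadjusted p under 0.05, in contralateral against naive 2 did (against 5.18%), and in the 2 other comparisons 0 did (2.66% for sham against naive and 4.86% for contralateral against sham).

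Other tests on the same counts gave a few calls. With the Wald test of DESeq2, Gm2a was called against sham (1 member, 3.17% of all genes called), Gm2a, Grn and Atp6v0c against naive (3 members, 3.97%), and Gm2a against contralateral (1 member, 4.51%). With limma voom and quality weights, Grn was called against sham (1 member, 0.637% of all genes) and Grn and Atp6v0c against naive (2 members, 1.36%), while against contralateral 0 were called (0.014%). These calls all lay in the higher direction.

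Gm2a encodes the GM2 activator, which lifts GM2 ganglioside out of the membrane for beta-hexosaminidase A (gene ENSMUSG00000000594.7, chr11:55098115-55113029, plus strand). Its level was 622, 403 and 679 CPM in microbead 1 to 3, and 137, 192 and 240 CPM in contralateral 1 to 3. In sham 1 to 4 it was 263, 401, 235 and 217 CPM, and in naive 1 to 4 it was 195, 271, 299 and 335 CPM. All 3 microbead libraries were thus above all 11 others, although microbead 2 and sham 2 stood almost level.

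The log2 fold change of Gm2a in microbead against naive was 1.05 ± 0.30 (SE), a fold of 2.06 with a 95% interval of 1.33 to 3.21 (edgeR adjusted p = 0.171). Against sham it was 1.03 ± 0.30 (edgeR adjusted p = 0.220) and against contralateral 1.58 ± 0.33 (edgeR adjusted p = 0.0760). These comparisons share the microbead libraries. Without the 2 libraries with few genes the values were 0.95, 0.93 and 1.51. On the FPKM scale the microbead libraries did overlap with the sham and naive ones. Microbead 2 had 88.4 FPKM and the other 2 microbead libraries 166 and 145, against up to 110 in sham and 89.3 in naive libraries. The contralateral libraries, at 30.9, 41.7 and 70.0 FPKM, stayed below all 3 microbead ones.

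Against contralateral, the call of Gm2a turned on single libraries. Its adjusted p (edgeR) was 0.0474 without microbead 2 (1 member called, 0.201% of all genes) and 0.0482 without contralateral 3 (1 member, 0.368%), and it lay between 0.0613 and 0.185 when any other library was left out. With the low-count filter dropped it was 0.0295 (1 member, 0.612%). Over all 24 alternatives, which include the tests of DESeq2 and limma, the adjusted p of Gm2a ran from 0.0006 to 0.90. Its log2 fold change ran from 1.42 to 1.81.

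Grn encodes progranulin, a secreted glycoprotein that is taken into lysosomes and cut into granulins (ENSMUSG00000034708.11, chr11:102430315-102437048, plus strand). It stood at 1751, 2934 and 2347 CPM in microbead 1 to 3 and at 1752, 1492 and 1781 CPM in contralateral 1 to 3. Sham 1 to 4 had 1672, 1484, 1428 and 1709 CPM, and naive 1 to 4 had 1325, 1280, 1676 and 1686 CPM. Microbead 2 and 3 were above every other library, while microbead 1 lay within the contralateral range and just above the sham and naive libraries.

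For Grn, the log2 fold change was 0.65 ± 0.21 against naive (edgeR adjusted p = 0.253), a fold of 1.57 with a 95% interval of 1.15 to 2.14. It was 0.58 ± 0.21 against sham (edgeR adjusted p = 0.390) and 0.49 ± 0.23 against contralateral (edgeR adjusted p = 0.429). Microbead 2 carried much of this: without it the values against naive and sham were 0.43 and 0.35. On the FPKM scale microbead 3 (1272) lay inside the sham and naive ranges. Grn overlaps Fam171a2 on the opposite strand, and the sources used here do not give whether the counting used strand. Other members overlap genes as well, among them Lamp1 (Grtp1), Atp6v0b (Gm12841) and Hexa (Tmem202), each on the opposite strand.

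Psap, the precursor of the saposins, showed a division among the microbead libraries. It stood at 900 CPM in microbead 1, below all 11 libraries of the other groups, and at 2464 and 2483 CPM in microbead 2 and 3, above all of them. The mean was 1949 ± 909 (SD, n = 3) CPM in microbead, 1724 ± 284 (SD, n = 3) in contralateral, 1681 ± 274 (SD, n = 4) in sham and 1449 ± 268 (SD, n = 4) in naive libraries. Laptm4a divided in the same way, at 64.6, 234 and 267 CPM in microbead 1 to 3 and at 77.6 to 224 CPM in the other groups.

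**Figure D2:**
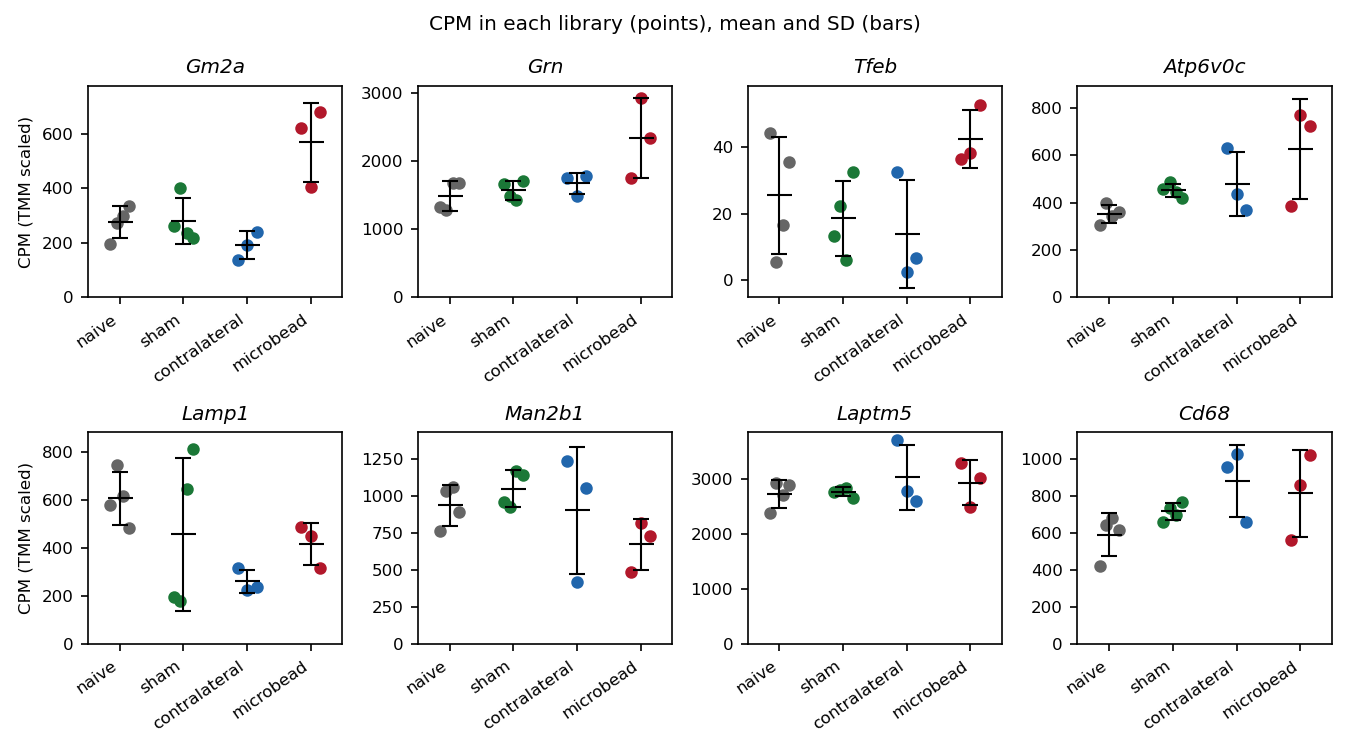
Each panel gives 1 gene's level in CPM for every library (points), with the mean and SD of each group (bars). Gm2a separates all 3 microbead libraries from the rest, Lamp1 falls into a low and a high pair in the sham group, and Laptm5 differs little between groups.

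The transcription factor Tfeb was counted at 36.6, 38.3 and 52.7 CPM in microbead 1 to 3 and at 32.7, 2.52 and 6.84 CPM in contralateral 1 to 3. Sham 1 to 4 had 13.5, 22.3, 6.15 and 32.6 CPM, and naive 1 to 4 had 44.5, 5.55, 16.7 and 35.6 CPM. All 3 microbead libraries were above the sham and contralateral libraries, and naive 1 lay among them. The log2 fold change was 1.19 ± 0.92 against sham (edgeR adjusted p = 0.739), 0.74 ± 0.92 against naive (edgeR adjusted p = 0.875) and 1.61 ± 1.01 against contralateral (edgeR adjusted p = 0.551). The error exceeded the difference against naive and was below it in the other comparisons, and the 95% interval of the fold against sham ran from 0.60 to 8.71.

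Among the V0 subunits, all 4 had a positive log2 fold change in each microbead comparison, with medians of 0.59 against sham, 0.76 against naive and 0.55 against contralateral. The medians of all tested genes were -0.12, -0.14 and -0.08. Atp6v0c, the proteolipid of the proton-carrying ring (chr17:24163866-24169702, minus strand), was at 385, 773 and 723 CPM in microbead 1 to 3 and at 631, 437 and 370 CPM in contralateral 1 to 3. Sham 1 to 4 had 460, 486, 446 and 419 CPM, and naive 1 to 4 had 306, 397, 343 and 362 CPM. Microbead 2 and 3 were above the other 12 libraries and microbead 1 was not, and every sham library was above every naive one.

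For Atp6v0c, the log2 fold change was 0.83 ± 0.27 against naive (edgeR adjusted p = 0.244), a fold of 1.78 with a 95% interval of 1.21 to 2.63. It was 0.47 ± 0.27 against sham and 0.39 ± 0.29 against contralateral. Without the 2 libraries with few genes the difference from naive was 1.06. The processed copy Atp6v0c-ps1 had at most 7 reads in any library. Psap, Laptm4a, Atp6v0c, Atp6v0b, Atp6v0e and Man2b1 were singled out after their values were seen.

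Atp6v0b, the other proteolipid gene shown above with its E-box, stood at 294, 531 and 523 CPM in microbead 1 to 3 against 271, 284, 279 and 342 CPM in naive 1 to 4. The groups overlapped through microbead 1, and the log2 fold change was 0.61 ± 0.27 (edgeR adjusted p = 0.451). Atp6v0e, a small membrane subunit, stood at 114, 213 and 165 CPM in the microbead libraries and at 111, 105, 113 and 74.0 CPM in sham 1 to 4, without overlap. Its log2 fold change against sham was 0.71 ± 0.34 (edgeR adjusted p = 0.514). Atp6v0d1 ranged from 0.473 CPM in contralateral 2 to 166 CPM in microbead 1, with all 4 groups overlapping.

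The V1 subunits were more mixed. Of 7, 5 had a positive log2 fold change against each of sham, naive and contralateral, with medians of 0.25, 0.44 and 0.05. Atp6v1h, which regulates the coupling of the sectors, ranged from 4.10 to 94.5 CPM over the 14 libraries, and Atp6v1f from 17.2 CPM in microbead 1 to 231 CPM in contralateral 2. The accessory genes Atp6ap1 and Atp6ap2, needed for assembly of the pump, had a median of 0.26 against naive and of -0.05 against sham. Over the 13 V-ATPase members the medians were 0.61 against naive (11 positive), 0.34 against sham (9 positive) and 0.19 against contralateral (9 positive).

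In the microbead comparisons the 10 hydrolases had differences of both signs. Their median log2 fold change was 0.07 against naive (6 positive), -0.12 against sham (3 positive) and 0.18 against contralateral (7 positive). In sham against naive all 10 were positive, with a median of 0.25. Man2b1, lysosomal alpha-mannosidase, stood at 483, 818 and 728 CPM in microbead 1 to 3 and at 964, 925, 1170 and 1146 CPM in sham 1 to 4, so every microbead library was below every sham one. The log2 fold change was -0.64 ± 0.31 (edgeR adjusted p = 0.514), and in naive libraries the level ranged from 763 to 1064 CPM. Hexa, whose product works with the GM2 activator, was at 978 ± 156 (SD, n = 3) CPM in microbead, 990 ± 237 (SD, n = 3) in contralateral, 897 ± 82.2 (SD, n = 4) in sham and 704 ± 168 (SD, n = 4) in naive libraries. Within the 3 microbead libraries alone, Naglu ranged from 15.8 to 297 CPM and Asah1 (acid ceramidase) from 62.5 to 672 CPM, with microbead 1 the lowest in both.

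**Figure D3:**
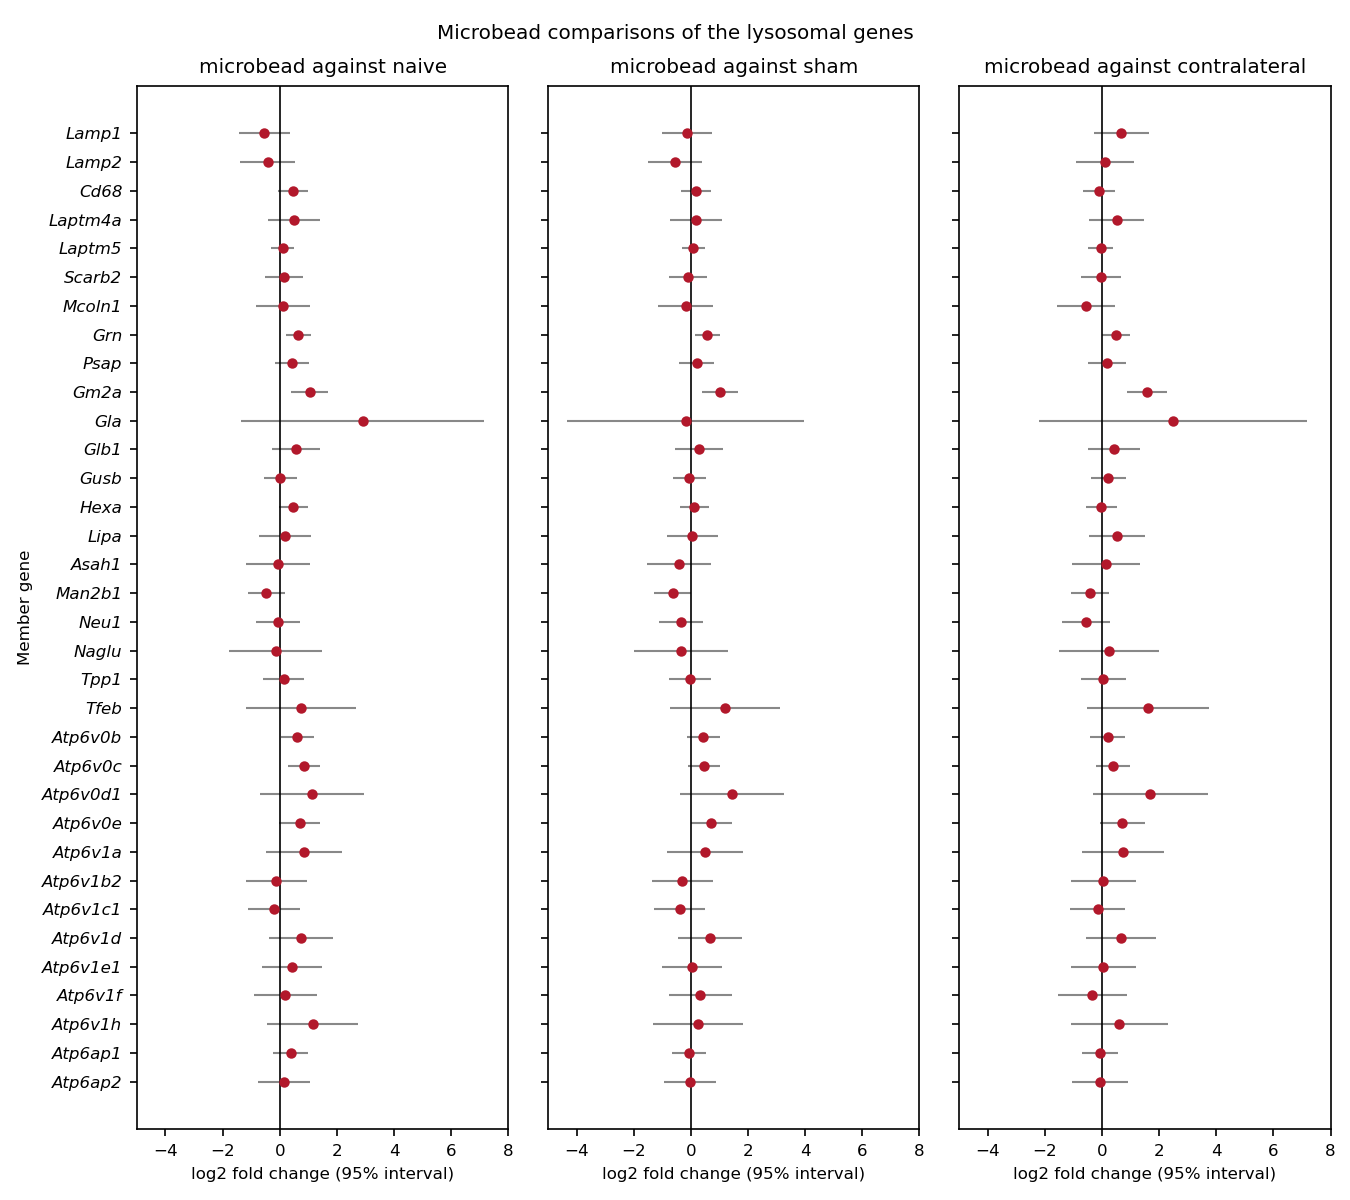
log2 fold change of each member (points) with its 95% interval (lines) in the 3 microbead comparisons, ordered by role. Gm2a lies above 0 with its whole interval in all 3 panels and Grn does too, while most other intervals cross 0 and that of Gla is the widest.

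The membrane proteins did not move together either. Their median log2 fold change in the microbead libraries was 0.12 against naive (5 of 7 positive), -0.09 against sham (3 positive) and -0.03 against contralateral (3 positive). Laptm5 was at 3283, 2483 and 3025 CPM in microbead 1 to 3 and at 3705, 2776 and 2602 CPM in contralateral 1 to 3. Sham 1 to 4 had 2767, 2794, 2840 and 2650 CPM, and naive 1 to 4 had 2379, 2916, 2712 and 2890 CPM. The groups overlapped, and the log2 fold change against naive was 0.10 ± 0.19 with a 95% interval of -0.30 to 0.51.

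Cd68, a scavenger protein of macrophage lysosomes, was at 562, 862 and 1024 CPM in microbead 1 to 3 and at 958, 1026 and 659 CPM in contralateral 1 to 3. Sham 1 to 4 had 662, 735, 700 and 770 CPM, and naive 1 to 4 had 419, 645, 680 and 614 CPM. The highest values were shared by microbead and contralateral libraries. The log2 fold change against naive was 0.47 ± 0.25 for microbead (edgeR adjusted p = 0.529) and 0.58 ± 0.25 for contralateral (edgeR adjusted p = 0.949), and both share the naive libraries.

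Lamp1, a major glycoprotein of the lysosomal membrane (chr8:13159161-13175338, plus strand), showed another pattern than Cd68. It stood at 486, 448 and 317 CPM in microbead 1 to 3, at 317, 225 and 239 CPM in contralateral 1 to 3 and at 581, 745, 618 and 482 CPM in naive 1 to 4. Sham 1 and 2 had 194 and 179 CPM, whereas sham 3 and 4 had 644 and 811 CPM. All contralateral libraries were below all naive ones, and the sham libraries fell on both sides of them.

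In contralateral against naive, Lamp1 had a log2 fold change of -1.22 ± 0.43 (edgeR adjusted p = 0.949, unadjusted p = 0.0116). In that comparison 1 member was lower and 1 (Cd68) higher at an unadjusted p under 0.05, against 2.28% and 2.9% of all genes. For microbead against naive the Lamp1 value was -0.54 ± 0.43 (edgeR adjusted p = 0.721). Sham 1 to 4 held 8.50, 13.6, 12.7 and 12.7 M reads, and the part of depth in the split of the sham libraries was not tested.

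Groups that did not overlap were counted as well. In microbead against sham, 4 members were higher (Grn, Gm2a, Tfeb and Atp6v0e) and 1 lower (Man2b1), against 5.11% and 7.08% of all genes. Against naive 3 were higher (Grn, Gm2a and Gla) where 4.85% of all genes were, and 0 lower where 6.98% were. Against contralateral 2 were higher (Gm2a and Tfeb) where 5.2% were, and 0 lower where 5.64% were. Gla passed with few reads, at 2.15 to 8.92 CPM in microbead and 0 to 1.99 CPM in naive libraries. In sham against naive, Atp6v0c was the single member without overlap (1 higher and 0 lower, against 1.61% and 1.37% of all genes). In contralateral against sham 0 were higher and 0 lower, against 2.04% and 3.88%, and in contralateral against naive 1 was higher (Mcoln1, the lysosomal calcium channel, against 2.49%) and 1 lower (Lamp1, against 3.73%).

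As a list, the 34 members gave a median of 0.40 (log2 fold change) for microbead against naive, with 26 positive (76.5%, against 45% of all genes). Against sham the median was 0.07 with 19 positive (55.9%, against 45.7%), and against contralateral 0.19 with 23 positive (67.6%, against 46.9%). The medians of all tested genes were -0.14, -0.12 and -0.08. Sham against naive gave 0.19 with 29 positive (85.3%, against 48.7%), contralateral against naive 0.13 with 20 positive (58.8%, against 47.4%), and contralateral against sham -0.11 with 13 positive (38.2%, against 48.2%). The 2 comparisons with naive, microbead and sham, share the naive libraries. The values for all genes are not matched to the members in level of expression.

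The list's level rested on single libraries. Relative to the naive mean, the median member in microbead 1 to 3 stood at -0.01, 0.45 and 0.69 on the log2(CPM + 1) scale. Contralateral libraries stood at 0.05 to 0.23, sham libraries at 0.15 to 0.28 and naive libraries at -0.21 to 0.17, so microbead 2 and 3 were above every other library and microbead 1 was among the naive ones. Naive 1 was the lowest of all, with 9 of 34 members above the naive mean. On the same scale, the median of the 1466 tested genes with the highest mean CPM was -0.07, 0.08 and 0.22 in microbead 1 to 3. It was 0.27, 0.26 and 0.03 in contralateral 1 to 3, 0.07 to 0.12 in sham and -0.03 to 0.07 in naive libraries. Without microbead 3 the median log2 fold change was 0.02 against naive, -0.17 against sham and -0.03 against contralateral. Without microbead 1 and contralateral 2 it was 0.55, 0.20 and 0.47.

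**Figure D4:**
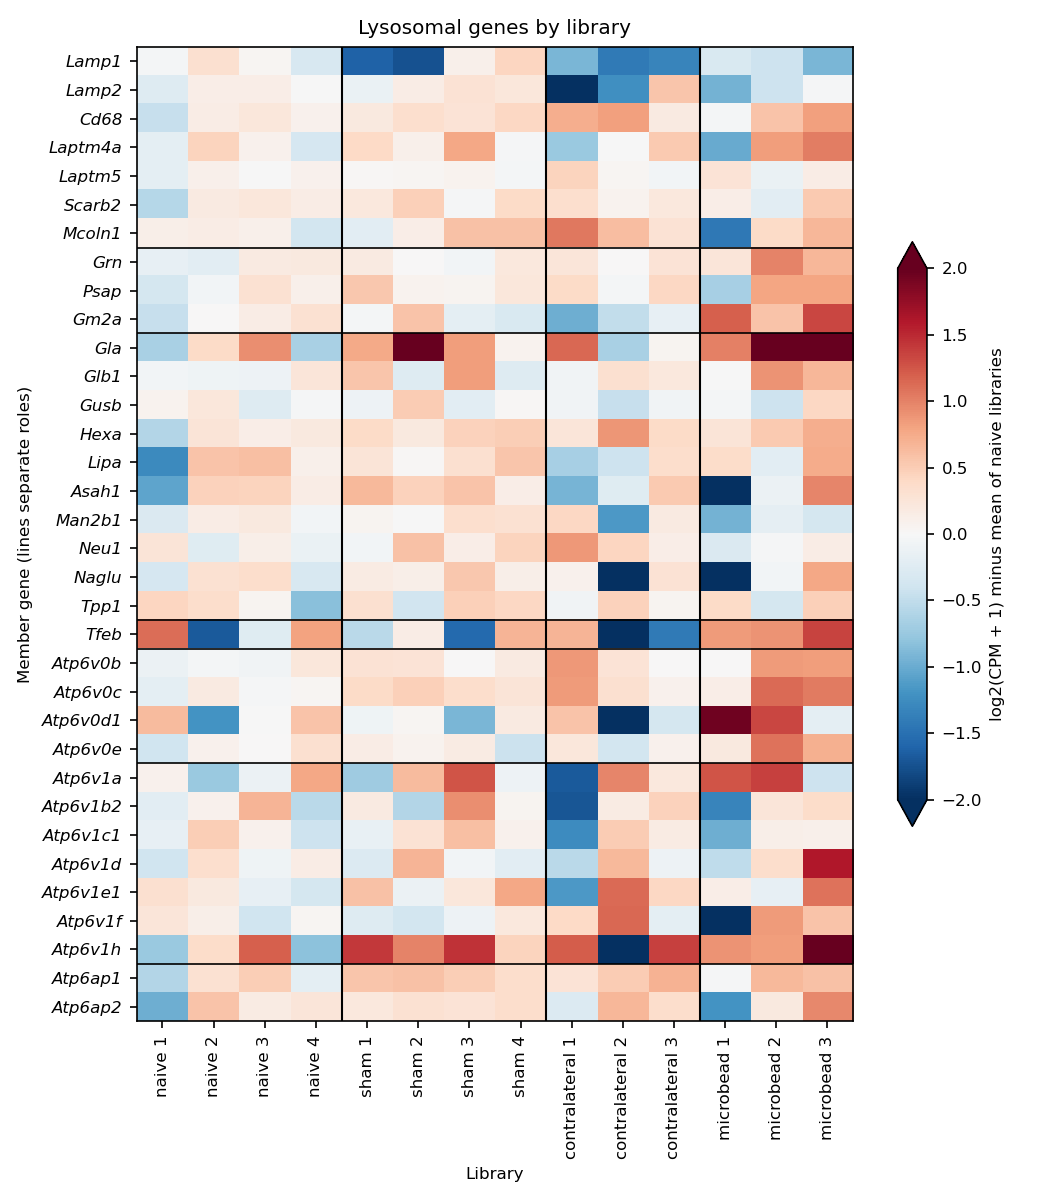
Difference of each member (rows, grouped by role) in each library (columns) from the mean of the naive libraries in log2(CPM + 1), with colours limited to 2 in each direction. Microbead 2 and 3 are mostly red, microbead 1 is mixed, and Lamp1 is blue in sham 1 and 2 and in the contralateral libraries.

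Libraries also differed by transcript length. Among genes of at least 10 CPM, the median of those of at most 1000 bases exceeded that of genes over 4000 bases by 1.12, 0.57 and 1.16 (log2) in microbead 1 to 3, relative to naive. The same shift was 0.36, 0.83 and -0.14 in contralateral 1 to 3, 0.00 to 0.14 in sham libraries and -0.21 to 0.11 in naive libraries. Of the members, 5 are at most 1000 bases in effective length (Atp6v1f, Atp6v0b, Atp6v0e, Atp6v0c and Cd68), and 3 of these are V0 subunits.

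With the length trend of each library removed, the median of these 5 members in microbead against naive went from 0.61 to -0.02, and that of the 29 longer members from 0.19 to 0.34. Atp6v0b went from 0.61 to -0.09 and Atp6v0e from 0.69 to -0.02, so their sign turned. Atp6v0c went from 0.83 to 0.45 and Cd68 from 0.47 to 0.07. Gm2a, whose effective length is 3837 bases, went from 1.05 to 1.21 and Grn from 0.65 to 0.56. The median of the 4 V0 members went from 0.76 to 0.21 with 2 positive. The V0 values above carry this limit, as does the Cd68 value for microbead against naive. Gm2a was larger and Grn nearly as large without the trend. Across the 34 members, Spearman's rho of length and log2 fold change was -0.25 against naive, -0.43 against sham and 0.06 against contralateral, as a description over genes that share the same libraries.

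**Figure D5:**
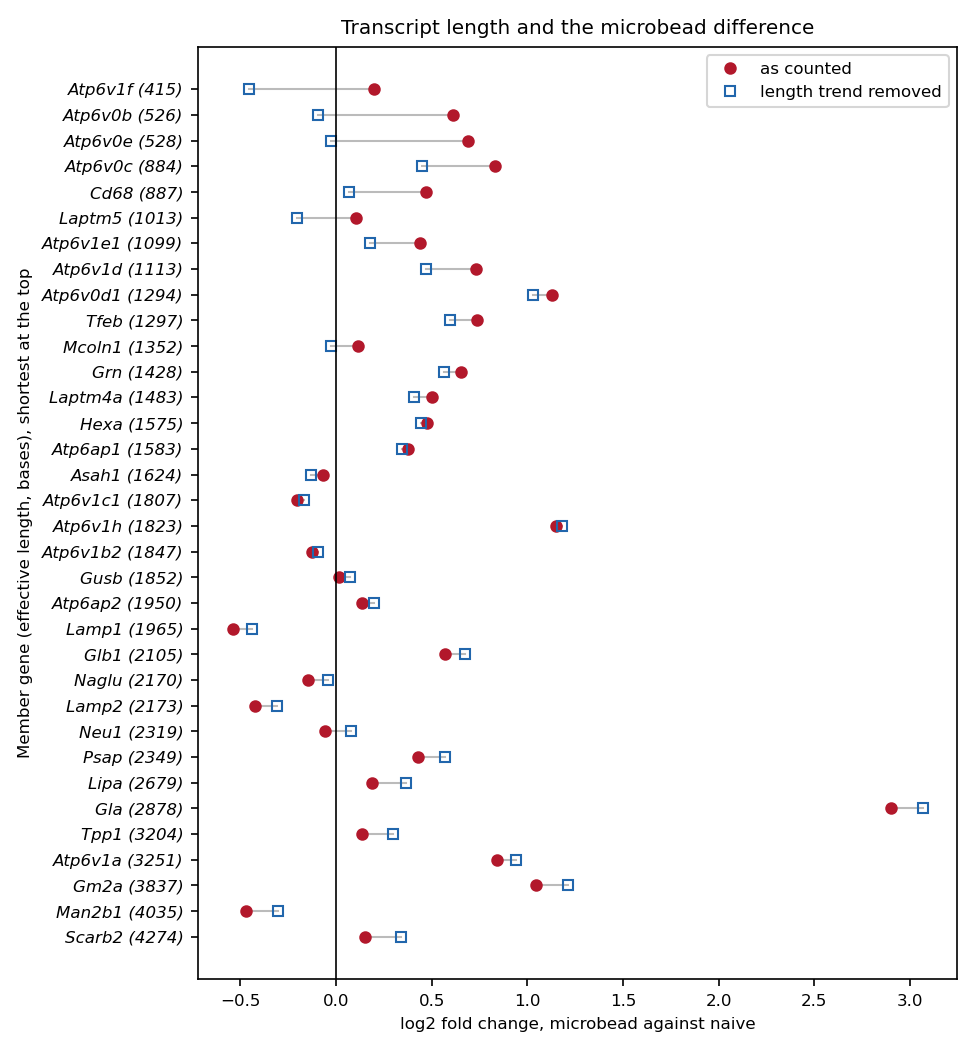
log2 fold change of each member in microbead against naive, as counted (filled circles) and with the length trend removed (open squares), ordered by effective length in bases. The shortest genes shift to the left, Atp6v0b from 0.61 to -0.09, and Gm2a shifts to the right.

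In microbead against naive, the median over members with the E-box core was 0.61 in log2 fold change (7 of 9 positive), and over those without it 0.38 (18 of 21 positive). Against sham the medians were 0.27 and 0.08, and against contralateral 0.68 and 0.05. In sham against naive they were 0.21 and 0.17. The 9 genes range from -0.54 (Lamp1) to 2.90 (Gla, which had few reads) against naive, and the difference between the medians was not tested. The median of 0.61 is the value of Atp6v0b, so it carries the limit of transcript length. With the length trend removed, Lamp1 (-0.44), Atp6v0b (-0.09), Naglu (-0.04), Mcoln1 (-0.03) and Atp6v0e (-0.02) were below 0 against naive. The rest of the 9 stood at 0.68 (Glb1), 0.94 (Atp6v1a), 1.03 (Atp6v0d1) and 3.07 (Gla).

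The other lysosomal genes were given by 4 lists that hold 134 genes and none of the members (other hydrolases, membrane and trafficking genes, other V-ATPase and assembly genes, and sensing genes). Of these, 122 were tested and 0 passed the adjusted p in any microbead comparison. At an unadjusted p under 0.05, 5 were higher and 5 lower against naive, where 4.72% and 5.81% of all genes were. Against sham 4 were higher and 9 lower (4.48% and 5.27% of all genes), and against contralateral 5 and 10 (4.89% and 6.66%). Their median log2 fold changes were -0.07, -0.11 and -0.15, beside -0.14, -0.12 and -0.08 for all genes.

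Of these, Npc2, which binds cholesterol inside the lysosome, stood at 590, 1038 and 975 CPM in microbead 1 to 3 and at 351 to 564 CPM in the 11 other libraries, without overlap. Its log2 fold change against naive was 0.82 ± 0.24 (edgeR adjusted p = 0.170). Arsb, which removes sulfate from dermatan sulfate, stood at 187, 235 and 227 CPM in the microbead libraries and at 279 to 733 CPM elsewhere, with -1.11 ± 0.30 against naive (edgeR adjusted p = 0.136). Rptor, the mTORC1 subunit that is recruited to lysosomes, stood at 103, 79.1 and 127 CPM against 178 to 304 CPM elsewhere, with -1.28 ± 0.30 against naive (edgeR adjusted p = 0.0819). Each of these genes was named for having the smallest p against naive in its list. In that comparison 4.85% of all genes were higher and 6.98% lower without overlap. The length trend was not removed from the values of Npc2, Arsb and Rptor.

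Marker genes of other cells were summed for each library. The summed CPM of 15 monocyte and macrophage markers was 1100 to 2355 in microbead, 381 to 1440 in contralateral, 582 to 1415 in sham and 448 to 628 in naive libraries, with 4 of 15 (Ly6c2, S100a8, S100a9 and Chil3) at 0 in every library. The sum of 9 border-associated macrophage markers was 222 to 332 in microbead libraries and 380 to 1052 in the others, with none of the 9 at 0 throughout. The sum of 11 Muller glia and astrocyte markers was 20076 to 53933 in microbead, 2191 to 7864 in contralateral, 3646 to 5918 in sham and 3801 to 7884 in naive libraries, with Gfap and Sox9 at 0 in all. Apoe, which microglia also express, made up most of it, and without Apoe the 10 others summed to 314 to 454 in microbead, 309 to 697 in contralateral, 329 to 394 in sham and 307 to 364 in naive libraries. The sum of 14 rod photoreceptor markers was 555 to 4594 in microbead and 278 to 3894 in the other libraries. The part of other cells in the differences of Gm2a, Grn and the V0 genes was not tested.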

How the data were processed

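SMART-Seq2 libraries of sorted retinal microglia were analysed in 4 groups taken from the labels (microbead 3, contralateral 3, sham 4, naive 4). Per the file headers, the authors deposited for each library a table of expected counts (estimated, unscaled reads of each gene) with effective lengths. Beside them stands the authors' FPKM, per kilobase of effective length and mapped reads, and a series-wide deposited table repeats it, with 0 values differing by more than 0.006. The submitters' processing notes list mm10, DESeq2 1.30.1, R 4.0.3 and Salmon 1.4.0 without saying what each did. The strand setting and the annotation release are not given in the sources used here.

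Expected counts were rounded and tested in R 4.3.3 with edgeR 4.0.16: filterByExpr (minimum count 10), TMM factors, and 1 robust quasi-likelihood model with 1 coefficient per group over all 14 libraries (10 residual degrees of freedom). Each of 6 pairs and the joint difference were tested two-sided, with Benjamini-Hochberg adjustment of p-values over 14279 genes. A standard error is the estimate over the square root of its F statistic. CPM was computed here. Of 47729 identifiers, 456 are outside the series-wide table, and 1 of these took 5.22 to 24.2% of the reads of a library. The procedure was tested on simulated data. Those counts were drawn independently for each library and without a length trend, so that test does not bear on shared mice or transcript length.

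The members, lists and the rule for named genes were chosen with earlier results of these data known. Every member may be named. Values per library are given for members past the threshold, for those whose microbead libraries do not overlap at least 2 other groups, for Tfeb and Lamp1, and for the 3 with the highest FPKM. Genes of other lists are up to 3 with the smallest p against naive. Coordinates are from GENCODE M21 (GRCm38), matched to identifiers without version, and promoters are from RefSeq GRCm38.p6.

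Alternatives were DESeq2's size factors, testing without a filter, a filter of 50 reads, the Wald test of DESeq2 1.42.0, voom with quality weights of limma 3.58.1, the compared groups alone, a replicate block, removal of a length trend (lowess, span 0.5, genes of at least 10 CPM), leaving out identifiers outside the series-wide table, leaving out libraries under 12000 genes, and leaving out each library.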

Additional observations from a re-analysis of the deposited data

Results flagged for a closer look

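In 68 sets of 4 libraries (34 members in the sham and in the naive group), 5 had a library far from the other 3, where chance gives about 1 in 20. Gla was at 21.98 CPM in sham 2 and at 0.6441 to 1.821 CPM in the other sham libraries. Naglu was at 252.7 CPM in sham 3 against 188 to 193.9 CPM. Scarb2, the receptor that carries glucocerebrosidase to lysosomes, was at 86.1 CPM in naive 1 against 142.1 to 150 CPM. Mcoln1 was at 53.92 CPM in naive 4 against 74.99 to 77.49 CPM. Glb1 (beta-galactosidase) was at 81.79 CPM in naive 4 against 63.92 to 66.71 CPM. The groups of 3 libraries were not examined in this way. The other 3 sham libraries lay below the 3 microbead ones for Gla (2.15 to 8.92 CPM).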

How the results depend on the processing

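Under the alternatives listed above, 224 counts and medians stayed near their value and 14 moved, and 488 gene values kept their direction and side of the threshold, while 11 passed it and 5 turned sign. The number of members called was 1 against sham with DESeq2's Wald test and 1 with limma voom, 3 and 2 against naive, and against contralateral 1 with the Wald test and 1 with no filter on low counts. Leaving out 1 library at a time gave 0 to 1 members called against contralateral (Gm2a, without microbead 2 or without contralateral 3). The median member log2 fold change then ran from -0.17 to 0.20 against sham, from 0.016 to 0.55 against naive and from -0.031 to 0.50 against contralateral, each lowest without microbead 3. Against contralateral it was 0.39 with limma voom and 0.47 without libraries under 12000 genes. With the length trend removed, the signs of Atp6v0b (-0.093), Atp6v0e (-0.025) and Laptm5 (-0.20) against naive turned. That of Laptm5 also turned without libraries under 12000 genes (-0.0097) and without microbead 1 (-0.0095). The cause of these changes was not tested. No label says that replicate numbers mark a shared mouse, so the numbers were not taken to pair libraries. Same-numbered libraries had correlations of -0.039 to 0.113 over 19 pairs, with 0.028, -0.035 and 0.091 between microbead and contralateral libraries. With so few libraries in a group, these correlations cannot show whether libraries share a mouse. With the replicate number as a block, 0 members were called, and the medians were 0.04 against sham, 0.31 against naive and 0.19 against contralateral. The joint test was not run with the Wald test or with the compared groups alone. Low counts limit Gla (0 reads in 3 libraries), Atp6v0d1 (as few as 3 reads) and Tfeb (as few as 16 reads). None of these lowest counts was in microbead 1, the shallowest library (1.34 M reads), and their cause was not tested.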

Other observations

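Within the pump, subunits of the same complex did not keep a common level in single libraries. In microbead 1, Atp6v0d1 was at 166 CPM, the highest of the 14 libraries, while Atp6v1f was at 17.2 CPM, the lowest. In contralateral 2, Atp6v0d1 was at 0.473 CPM, the lowest, while Atp6v1f was at 231 CPM, the highest. Both are the libraries with reads on fewest genes, and the cause was not tested.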
